A study of Mus musculus with 8 samples.

Results

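The 8 genes described here encode the ATPases and the core subunits of the mouse SWI/SNF, or BAF, chromatin remodeling complexes: Smarca4, Smarca2, Smarcb1, Smarcc1, Smarcd1, Smarcd2, Smarcd3 and Smarce1. Every probe set that the array's annotation assigns to one of these genes alone was taken, whatever its values, which gave 16 probe sets of the 22626 compared. No probe set named one of the genes together with another gene (count of 0), and Smarcd3 was the 1 gene with a single probe set. RNA came from whole lenses of mouse embryos at E15.5, on a mixed background, with 4 wild type and 4 dnBrg1 samples, each on 1 Affymetrix Mouse Genome 430A 2.0 array. The dnBrg1 embryos carried a transgene for Brg1 in which the lysine of the ATP-binding motif is replaced, with a FLAG tag at its C-terminal end. A fragment of the αA-crystallin promoter switched it on in fiber cells that had left the cell cycle, on top of the embryos' own Smarca4 alleles. All transgenic animals came from 1 founder line, so effects of the insertion site and of the transgene cannot be told apart. The question put to these values is whether transcripts of Brg1's own complex differ in level between lenses with and without the impaired enzyme.

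SWI/SNF complexes use ATP to slide and evict nucleosomes and so change which DNA is open to transcription factors. Each complex holds a single ATPase, either Brg1 (encoded by Smarca4) or Brm (Smarca2). The ATPase is joined by a core of Smarcb1, which contacts the nucleosome, Smarcc proteins, which scaffold the assembly, a Smarcd protein, which links the complex to transcription factors, and Smarce1, which carries a DNA-binding HMG domain. The 3 Smarcd genes are paralogs, and a complex takes one of their products. In the lens, fiber cells elongate, accumulate crystallins and later lose their nuclei.

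The promoters of 4 of the genes are shown because they differ in a short sequence that the binding factor NRF1 is known to recognize and in their CpG content. They run from 250 bases before to 30 bases after 1 annotated transcription start of each gene, were taken from RefSeq on build GRCm38.p6, and are written 5′ to 3′ on the gene's strand. Capitals mark GCATGCGC or its reverse complement GCGCATGC. The RefSeq table held 7 of the 8 genes, without Smarce1.
Smarca4 promoter, chr9:21615919-21616198 (plus strand): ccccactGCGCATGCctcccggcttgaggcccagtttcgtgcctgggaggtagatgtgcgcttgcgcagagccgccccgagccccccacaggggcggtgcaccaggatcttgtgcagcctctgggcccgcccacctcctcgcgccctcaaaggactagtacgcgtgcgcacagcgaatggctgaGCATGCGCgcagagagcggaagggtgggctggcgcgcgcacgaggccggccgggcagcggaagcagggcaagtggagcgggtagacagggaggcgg
Smarcb1 promoter, chr10:75921585-75921864 (minus strand): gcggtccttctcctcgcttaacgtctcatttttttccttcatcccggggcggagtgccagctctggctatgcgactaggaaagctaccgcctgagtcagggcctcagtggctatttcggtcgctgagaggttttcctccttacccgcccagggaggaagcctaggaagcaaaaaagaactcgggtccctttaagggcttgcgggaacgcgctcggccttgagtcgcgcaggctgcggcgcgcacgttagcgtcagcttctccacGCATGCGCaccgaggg
Smarcc1 promoter, chr9:110131774-110132053 (plus strand): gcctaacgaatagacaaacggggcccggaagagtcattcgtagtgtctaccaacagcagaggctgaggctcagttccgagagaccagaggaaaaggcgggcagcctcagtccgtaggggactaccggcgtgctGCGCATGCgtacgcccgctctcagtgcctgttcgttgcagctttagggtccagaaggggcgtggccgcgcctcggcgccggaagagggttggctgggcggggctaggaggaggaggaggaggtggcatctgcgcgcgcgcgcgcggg
Smarcd2 promoter, chr11:106267603-106267882 (minus strand): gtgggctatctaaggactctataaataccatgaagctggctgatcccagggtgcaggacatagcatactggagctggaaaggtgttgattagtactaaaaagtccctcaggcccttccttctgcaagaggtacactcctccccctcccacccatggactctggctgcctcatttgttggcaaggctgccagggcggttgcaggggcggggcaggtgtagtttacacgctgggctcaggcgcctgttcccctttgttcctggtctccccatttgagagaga
Smarca4 held 2 matches, at -243 and -66 counted from the transcription start. Smarcc1 held 1 match at -117 and Smarcb1 held 1 match 15 bases into the transcript. Of 32851 promoter windows of the same length in the table, 2.58% held a match. The GC box GGGCGG or its reverse complement CCGCCC was present in 7 of 7 windows, against 34.7% of all. The ETS motif CCGGAAG, or CTTCCGG, was present in Smarca2 and Smarcc1, against 8.45% of all, and TATAAA, or TTTATA, in Smarcd2, against 13.1%. CCAAT, or ATTGG, was in 0 of the 7 windows, against 36.1% of all. The Smarcd2 window held 4 CpG dinucleotides, and the 6 other windows held 25 (Smarcb1), 27 (Smarca4), 28 (Smarcc1), 29 (Smarca2), 32 (Smarcd1) and 40 (Smarcd3). These matches describe letters in a window at a single start per gene. Shares over windows of like CpG content were not computed, so the matches are not shown to be particular to these genes. The transgene has its own promoter and does not use the Smarca4 sequence above.

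Values are log2 intensities. Changes are given as dnBrg1 minus wild type on the log2 scale (log2 fold change) with the standard error (SE) after the ± sign, and adjusted p-values come from a limma fit, corrected by Benjamini-Hochberg over all 22626 probe sets. A probe set is said to be called, or to have risen or fallen, when its adjusted p was under 0.05. Probes differ in how strongly they bind, so the levels of different probe sets are not compared. The lens origin of the RNA was checked on fiber cell genes: Cryaa, which encodes αA-crystallin, had a mean log2 intensity of 14.27 in the wild type and 14.31 in the dnBrg1 group. Summed intensity over the 5 measured lens fiber markers was 79022 to 85049 in wild type and 86222 to 93190 in dnBrg1 samples. Of these, Bfsp1 was the 1 marker called, with a limma log2 fold change of 1.54 (adjusted p = 8.5e-05). Cryaa, Cryba1, Crybb1 and Mip changed by 0.04, -0.03, -0.07 and -0.05 and were not called. A rise in all 5 markers is therefore not shown by the higher sum. Marker counts and sums here use the brightest probe set of each gene. Markers of macrophages summed to 3495 to 4731 in wild type and 1348 to 2560 in dnBrg1 samples, with 3 of 4 called higher and 1, Csf1r, called lower. The lower sum therefore does not stand for all 4 markers. Further Csf1r probe sets had limma log2 fold changes of -2.03 (adjusted p = 8.5e-05) and -0.32 (adjusted p = 0.11, not called). Markers of skeletal muscle summed to 274 to 430 and to 433 to 3119, with 1 of 4 called. The part of these cells in the results below was not tested, and fewer cells of a type and less RNA per cell cannot be told apart in whole lenses.

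A second measure that separated the groups concerns the ends of transcripts. The array carries control probe sets near the 3′ and the 5′ end of Gapdh and of Actb (β-actin), and their difference grows as fewer labeled copies reach the 5′ end. For Gapdh, the 3′ value exceeded the 5′ value by 1.33, 2.36, 0.999 and 1.69 in wild type replicates 1 to 4 and by 0.69, 0.65, 0.67 and 0.65 in dnBrg1 replicates 1 to 4. For Actb the difference was 2.47, 2.96, 1.85 and 2.71 in wild type and 0.60, 0.65, 0.51 and 0.55 in dnBrg1. The groups did not overlap for either control (differences of means -0.93 and -1.92, each with a two-sided exact permutation p of 0.0286, the smallest that 4 against 4 allows). Fold changes refitted with the mean of both differences as a covariate are given beside each gene as the control covariate.

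Of the 16 probe sets, 9 were higher and 3 were lower in dnBrg1 lenses, and 4 were not called. Over all probe sets, 19.8% were called higher, 21.0% lower and 40.8% in either direction. The groups did not overlap for 11 of the 16, against 40.1% of all probe sets. The median log2 fold change was 0.74 over the 16 and -0.08 over all probe sets. With 1 probe set per gene, the one with the highest mean over the 8 samples, 4 of the 8 genes were higher (Smarcc1, Smarcd1, Smarcd3 and Smarce1) and 2 were lower (Smarca2 and Smarcb1), against 17.5% and 23.3% of 12393 genes. The median was then 0.33 for the 8 genes and -0.11 for all genes. At least 1 probe set was higher for 7 of the 8 genes, the exception being Smarcd2. The share of all genes under this looser rule was not computed, and it gives genes with more probe sets more chances of a call.

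**Figure D1:**
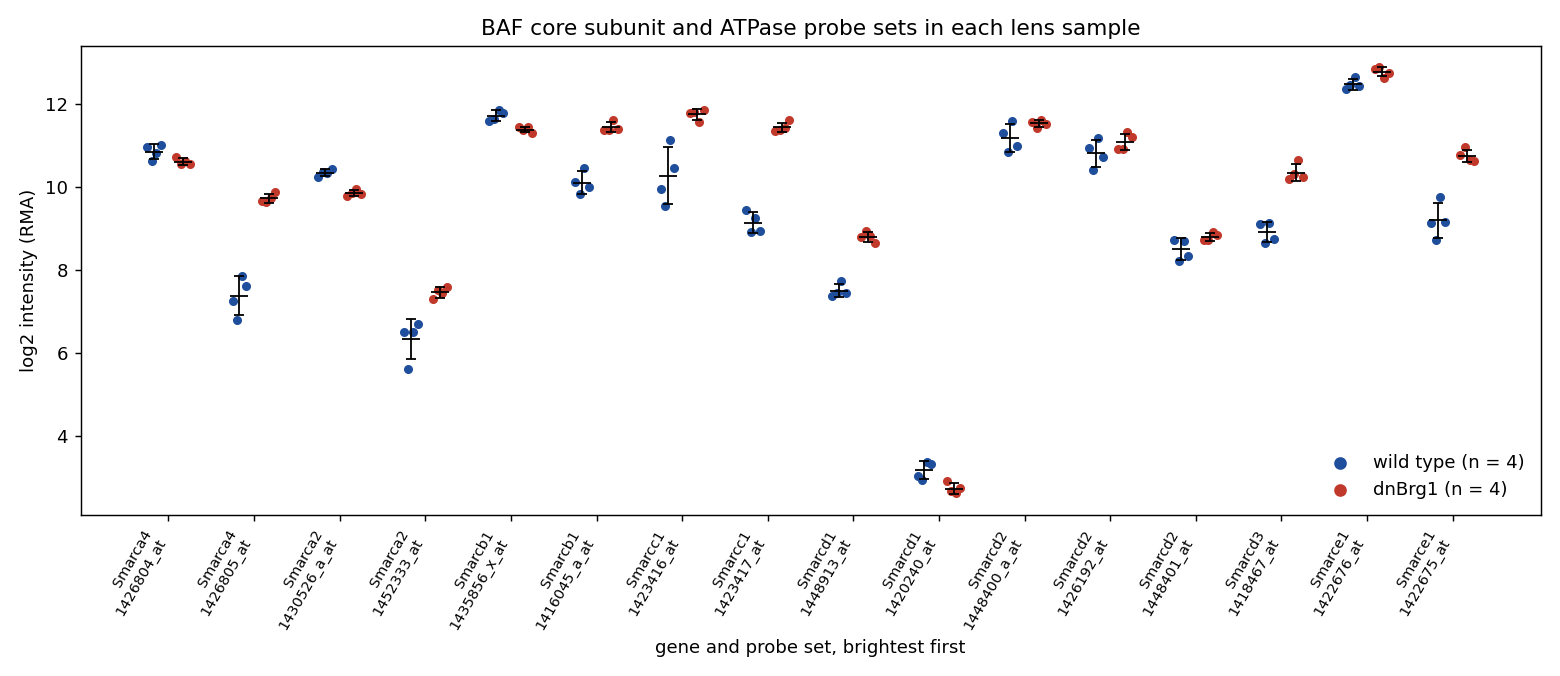
Log2 intensity (vertical axis) of the 16 probe sets grouped by gene along the horizontal axis with the brightest first. Blue is wild type and red is dnBrg1, with 4 samples each. Points are samples in the order of replicates 1 to 4, and bars are the mean and SD. The wild type points scatter more than the dnBrg1 points in all 16, and the groups are apart in 11.

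Smarca4, which encodes Brg1 and is also the gene from which the transgene was made, gave different answers with its 2 probe sets. With 1426804_at, the brighter, log2 intensity was 10.98, 10.63, 10.82 and 11.01 in wild type and 10.73, 10.55, 10.64 and 10.55 in dnBrg1 samples. The groups overlapped, since wild type replicate 2 lay among the dnBrg1 samples. The log2 fold change was -0.24 ± 0.11 (95% interval -0.50 to 0.01, adjusted p = 0.12). It was called lower with array weights (-0.29, adjusted p = 0.046) and without wild type replicate 2 (-0.32, adjusted p = 0.041), and adjusted p ran from 0.041 to 0.35 over the settings tried.

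With 1426805_at, Smarca4 was at 7.25, 6.79, 7.87 and 7.63 in wild type and at 9.67, 9.65, 9.73 and 9.88 in dnBrg1 samples. All 4 dnBrg1 samples were higher than the wild type samples and close together. This probe set rose 5.10-fold, from 7.38 ± 0.47 to 9.73 ± 0.10 (SD, n = 4 each; log2 fold change 2.35 ± 0.21, adjusted p = 4.8e-05). Which part of the Smarca4 transcript either probe set reads, and whether that part is in the transgene, is not stated in the sources used here. Endogenous Smarca4 and transgene transcripts therefore cannot be told apart with these values. The control covariate put the changes at -0.43 for 1426804_at and 1.26 for 1426805_at, and neither was called (adjusted p = 0.35 and 0.066).

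Smarca2 encodes Brm, the ATPase that can take the place of Brg1, and was called in both directions. With its brighter probe set, 1430526_a_at, the values were 10.24, 10.37, 10.35 and 10.44 in wild type and 9.80, 9.87, 9.96 and 9.84 in dnBrg1 samples. The dnBrg1 samples all lay below the wild type samples, and Smarca2 fell 1.40-fold by this probe set (log2 fold change -0.48 ± 0.09, adjusted p = 0.0028). With 1452333_at the values were 6.52, 5.63, 6.50 and 6.70 in wild type and 7.30, 7.53, 7.45 and 7.60 in dnBrg1 samples. Here every dnBrg1 sample lay above the wild type samples, of which replicate 2 was the lowest. By this probe set Smarca2 rose 2.19-fold (log2 fold change 1.13 ± 0.22, adjusted p = 0.0026). Both calls were lost with the control covariate, at -0.42 and 0.24 (adjusted p = 0.26 and 0.79).

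Smarcb1, the core subunit that contacts the nucleosome surface, was likewise split. Its brighter probe set, 1435856_x_at, read 11.59, 11.64, 11.87 and 11.80 in wild type and 11.44, 11.37, 11.44 and 11.31 in dnBrg1 samples. All dnBrg1 samples were lower, and the probe set fell 1.26-fold (log2 fold change -0.34 ± 0.10, adjusted p = 0.025). This call was lost without wild type replicate 4 (-0.31, adjusted p = 0.062), without dnBrg1 replicate 2 (-0.33, adjusted p = 0.059) or without dnBrg1 replicate 4 (-0.31, adjusted p = 0.071). Over all settings its adjusted p ran from 0.006 to 0.19. The suffix of this probe set marks probes that may also bind other transcripts.

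The second Smarcb1 probe set, 1416045_a_at, read 10.13, 9.83, 10.47 and 10.01 in wild type and 11.39, 11.39, 11.63 and 11.40 in dnBrg1 samples. Every dnBrg1 sample was higher, and replicate 3 stood above the other 3. Smarcb1 rose 2.54-fold by this probe set (log2 fold change 1.35 ± 0.14, adjusted p = 0.00011). Fitted with the control covariate, the changes were -0.53 and 0.61 and neither passed (adjusted p = 0.19 and 0.13).

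Smarcc1, which encodes the scaffold protein BAF155, rose with both of its probe sets. With 1423416_at the values were 9.96, 9.54, 11.15 and 10.46 in wild type and 11.79, 11.82, 11.57 and 11.85 in dnBrg1 samples. The wild type samples were spread widely, with replicate 3 nearest to the dnBrg1 samples, and the groups did not overlap. The increase was 2.79-fold (log2 fold change 1.48 ± 0.29, adjusted p = 0.0033). With 1423417_at the values were 9.44, 8.92, 9.27 and 8.94 in wild type and 11.36, 11.38, 11.42 and 11.61 in dnBrg1 samples. Here the wild type samples lay close together, and the 4 dnBrg1 samples were far above them. This increase was 4.94-fold, from 9.14 ± 0.25 to 11.44 ± 0.11 (SD, n = 4 each; log2 fold change 2.30 ± 0.14, adjusted p = 1e-05).

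The 2 Smarcc1 probe sets parted when the control covariate was added. The log2 fold change of 1423416_at was -0.12 (adjusted p = 0.90), a change of sign. That of 1423417_at was 1.78 ± 0.28 (95% interval 1.15 to 2.42, adjusted p = 0.017). This was the 1 call among the 16 probe sets that remained with the covariate, where 6.37% of all probe sets were called (3.57% higher and 2.80% lower). It also remained in all 24 settings tried, with log2 fold changes of 1.78 to 2.40.

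The Smarcd paralogs, whose products BAF60a, BAF60b and BAF60c occupy the same place in the complex, did not change alike by their brightest probe sets. Smarcd1 read 7.39, 7.44, 7.74 and 7.44 in wild type and 8.81, 8.95, 8.82 and 8.65 in dnBrg1 samples with 1448913_at. The groups were well apart, and Smarcd1 rose 2.47-fold (log2 fold change 1.31 ± 0.12, adjusted p = 4.5e-05). Its second probe set, 1420240_at, was among the dimmest of the array, with 3.04, 2.95, 3.38 and 3.34 in wild type and 2.91, 2.67, 2.62 and 2.75 in dnBrg1 samples. The 21 control probe sets for bacterial transcripts had means of 2.41 to 3.36, a range that holds both group means (3.18 and 2.74). The 3 controls for the bacterial trpn transcript alone had means of 2.79 to 3.12, just below the wild type mean. A rule set beforehand called a probe set dim when both group means lay below the highest of these 3. The second Smarcd1 probe set did not meet that rule. This probe set was called lower (log2 fold change -0.44 ± 0.13, adjusted p = 0.023), and the call was lost in 13 of the 23 settings that tested it. Among these were the fits without wild type replicate 4 and without dnBrg1 replicates 2, 3 and 4 in turn (adjusted p = 0.062, 0.058, 0.063 and 0.052).

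Smarcd3, which encodes the form known from heart and skeletal muscle, read 9.12, 8.65, 9.13 and 8.76 in wild type and 10.20, 10.31, 10.66 and 10.24 in dnBrg1 samples with its single probe set, 1418467_at. All dnBrg1 samples were higher, and Smarcd3 rose 2.71-fold, from 8.91 ± 0.25 to 10.36 ± 0.21 (SD, n = 4 each; log2 fold change 1.44 ± 0.15, adjusted p = 0.00011). Summed muscle marker intensity was 658, 1703, 433 and 3119 in dnBrg1 replicates 1 to 4. The Smarcd3 values of these samples are given above in the same order, and the part of muscle cells in them was not tested.

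Smarcd2 was not called with any of its 3 probe sets. With 1448400_a_at, the brightest, the values were 11.30, 10.84, 11.60 and 11.00 in wild type and 11.57, 11.42, 11.63 and 11.53 in dnBrg1 samples. The groups overlapped, and the log2 fold change was 0.35 ± 0.16 (95% interval -0.01 to 0.71, adjusted p = 0.11). It was 0.49 and called once wild type replicate 3 was left out (adjusted p = 0.015, against 0.015 to 0.65 over all settings), while it was 0.24 without wild type replicate 2 and 0.09 without wild type replicates 2 and 4. The log2 fold changes were 0.27 ± 0.18 with 1426192_at (95% interval -0.13 to 0.66, adjusted p = 0.25) and 0.31 ± 0.14 with 1448401_at (95% interval -0.0045 to 0.62, adjusted p = 0.11). They were 0.13 and 0.21 without wild type replicate 2, and 0.02 and 0.09 without replicates 2 and 4. The intervals of all 3 stay below a 2-fold change (1 on the log2 scale).

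The differences between paralogs were themselves tested within each sample, on their brightest probe sets, in 3 comparisons added after the values were seen. The log2 fold change of Smarcd1 exceeded that of Smarcd2 by 0.96, and that of Smarcd3 exceeded it by 1.09 (each with an exact permutation p of 0.0286, two-sided, and 0.0429 after adjustment over the 3 comparisons). Smarcd3 and Smarcd1 differed by 0.13 (exact permutation p = 0.371). Probe sets of the same gene (brightest minus further) also differed in log2 fold change, by -0.82 for Smarcc1 and -2.59 for Smarca4. For Smarcd2 they differed by 0.08 and 0.04. A difference between paralogs therefore cannot be told apart from one between probe sets. Under the control covariate the changes were 1.01 for Smarcd1 1448913_at (adjusted p = 0.053), -0.81 for Smarcd1 1420240_at (adjusted p = 0.12) and 0.81 for Smarcd3 (adjusted p = 0.14). Those of Smarcd2 turned to -0.56, -0.66 and -0.34 (adjusted p = 0.14, 0.17 and 0.40), so the direction of Smarcd2 depended on this covariate while that of Smarcd1 1448913_at and Smarcd3 did not.

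Smarce1, which encodes the HMG-domain subunit BAF57, rose with both probe sets, by very different amounts. With 1422676_at, the brighter, the values were 12.37, 12.46, 12.66 and 12.43 in wild type and 12.84, 12.89, 12.64 and 12.76 in dnBrg1 samples. Wild type replicate 3 lay above dnBrg1 replicate 3, so the groups overlapped, and the increase was 1.23-fold (log2 fold change 0.30 ± 0.11, adjusted p = 0.047). Leaving out replicate 1, 2 or 4 of either group ended the call, with adjusted p of 0.11, 0.078 and 0.099 for wild type and 0.11, 0.12 and 0.088 for dnBrg1. The call was lost in 16 of the 24 settings tried. Median centring and quantile scaling were among these (adjusted p = 0.067 and 0.068).

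With 1422675_at, Smarce1 was at 9.14, 8.73, 9.77 and 9.17 in wild type and at 10.77, 10.96, 10.66 and 10.63 in dnBrg1 samples. The groups were apart, and the increase was 2.93-fold (log2 fold change 1.55 ± 0.20, adjusted p = 0.0003). The control covariate left changes of 0.12 and 0.45, neither of them called (adjusted p = 0.80 and 0.37).

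**Figure D2:**
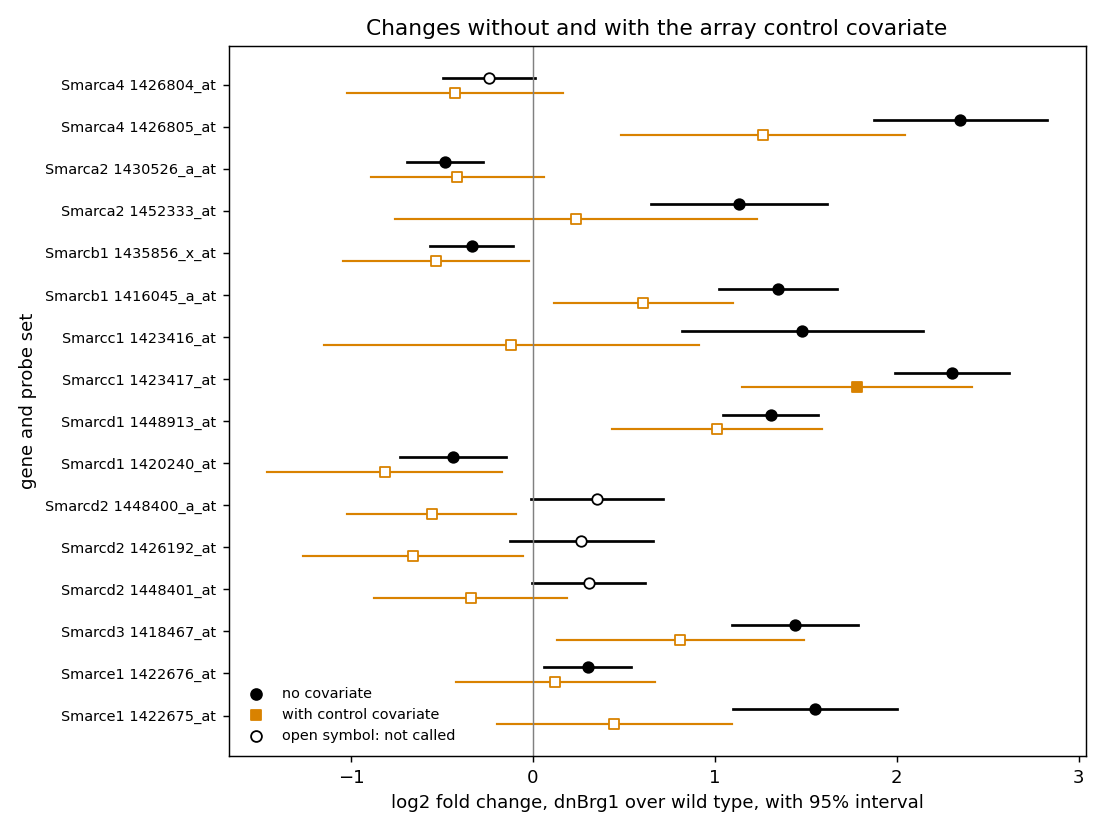
Log2 fold change of dnBrg1 over wild type (horizontal axis) with its 95% interval for the 16 probe sets (vertical axis), without a covariate (black circles) and with the control covariate (orange squares). Filled symbols are called and open symbols are not. With the covariate 1 filled symbol is left, Smarcc1 1423417_at at 1.78.

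The probe sets of one gene were compared directly, since 7 of the 8 genes have more than 1. In each sample the value of a further probe set was taken from that of the gene's brightest, and this difference was compared between the groups for 8 pairs. For Smarca4 it was 3.73, 3.85, 2.95 and 3.38 in wild type and 1.06, 0.90, 0.91 and 0.68 in dnBrg1 samples. For Smarca2 it was 3.72, 4.74, 3.85 and 3.74 in wild type and 2.50, 2.34, 2.51 and 2.24 in dnBrg1. In both ATPase genes the difference was smaller in every dnBrg1 sample than in any wild type sample.

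From wild type to dnBrg1 the mean difference went from 3.48 to 0.88 for Smarca4, from 4.01 to 2.40 for Smarca2, from 1.62 to -0.06 for Smarcb1, from 1.14 to 0.31 for Smarcc1 and from 3.27 to 2.03 for Smarce1. It went the other way for Smarcd1, from 4.33 to 6.07, where the further probe set is the one within the range of the bacterial controls. These 6 of 8 pairs did not overlap between the groups (each with an exact permutation p of 0.0286, two-sided, and 0.0381 after adjustment over the 8 pairs). The share of such pairs over all genes was not computed. The count is therefore not shown to be particular to these genes. The 2 Smarcd2 pairs moved by 0.08 and 0.04 (exact permutation p = 0.4 and 0.571). The transcript changes of Smarca4, Smarca2, Smarcb1, Smarcc1 and Smarce1 in dnBrg1 lenses thus differed in size between 2 probe sets of the same gene.

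**Figure D3:**
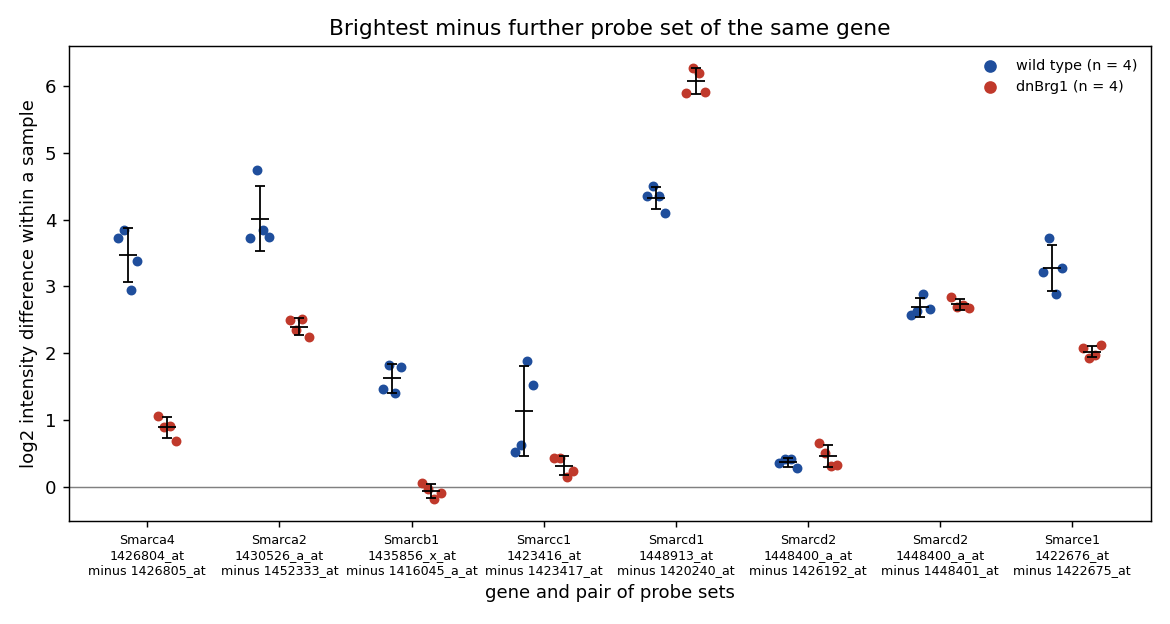
Brightest minus further probe set of the same gene in each sample (vertical axis, log2), for 8 pairs along the horizontal axis. Blue points are the 4 wild type samples, red points the 4 dnBrg1 samples, and bars give mean and SD. The groups are apart in 6 pairs, and the 2 Smarcd2 pairs overlap.

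Opposite calls within a gene were also counted. Smarca2, Smarcb1 and Smarcd1, 3 of the 7 genes with 2 or more probe sets, had 1 probe set called higher and 1 called lower, against 13.8% of the 4956 genes of the array with 2 or more. The lower Smarcd1 call is that of the probe set within the range of the bacterial controls, and without it 2 of the 6 remaining genes with 2 or more probe sets, Smarca2 and Smarcb1, were called both ways. Smarcc1 and Smarce1 were called higher with every probe set, against 5.35% of those genes. Averaged over a gene's probe sets, the log2 fold change was 1.05 for Smarca4, 0.32 for Smarca2, 0.50 for Smarcb1 and 1.89 for Smarcc1. It was 0.43 for Smarcd1 (1.31 without the probe set within the bacterial control range), 0.31 for Smarcd2, 1.44 for Smarcd3 and 0.93 for Smarce1. The averages of Smarca2 and Smarcd2 did not pass (adjusted p = 0.072 and 0.13), and no gene was lower by its average (count of 0). The share of all genes called by such averages is not given here, so this count has no background beside it.

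The spread of these genes was larger in wild type than in dnBrg1 lenses. The SD over 4 samples had a median of 0.257 in wild type and 0.115 in dnBrg1, and was smaller in dnBrg1 for 16 of 16 probe sets. Neither this spread nor the ranks below were set against all probe sets, so they are not shown to be particular to these genes. Wild type replicate 2 gave the lowest wild type value in 12 of the 16 and replicate 3 the highest in 11. These are also the wild type arrays with the largest and the smallest control difference, at 2.66 and 1.43 for the mean of Gapdh and Actb, against 1.90 and 2.20 in replicates 1 and 4 and 0.59 to 0.65 in dnBrg1 samples. For 4 probe sets (Smarcb1 1416045_a_at, Smarcd2 1448400_a_at and 1426192_at, and Smarcd3 1418467_at) the wild type samples ranked exactly in the reverse order of the control difference. The covariate fit rests on that spread within the groups, and its median SE over all probe sets was 0.295, against 0.145 without the covariate. Without wild type replicates 2 and 4, the arrays with the largest control differences, 8 of the 16 probe sets were higher and 2 were lower. In that fit 3737 of all 22626 probe sets were higher and 3404 were lower. The wild type arrays kept, at 1.90 and 1.43, still did not overlap the dnBrg1 arrays, so this fit cannot separate genotype from the control difference.

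**Figure D4:**
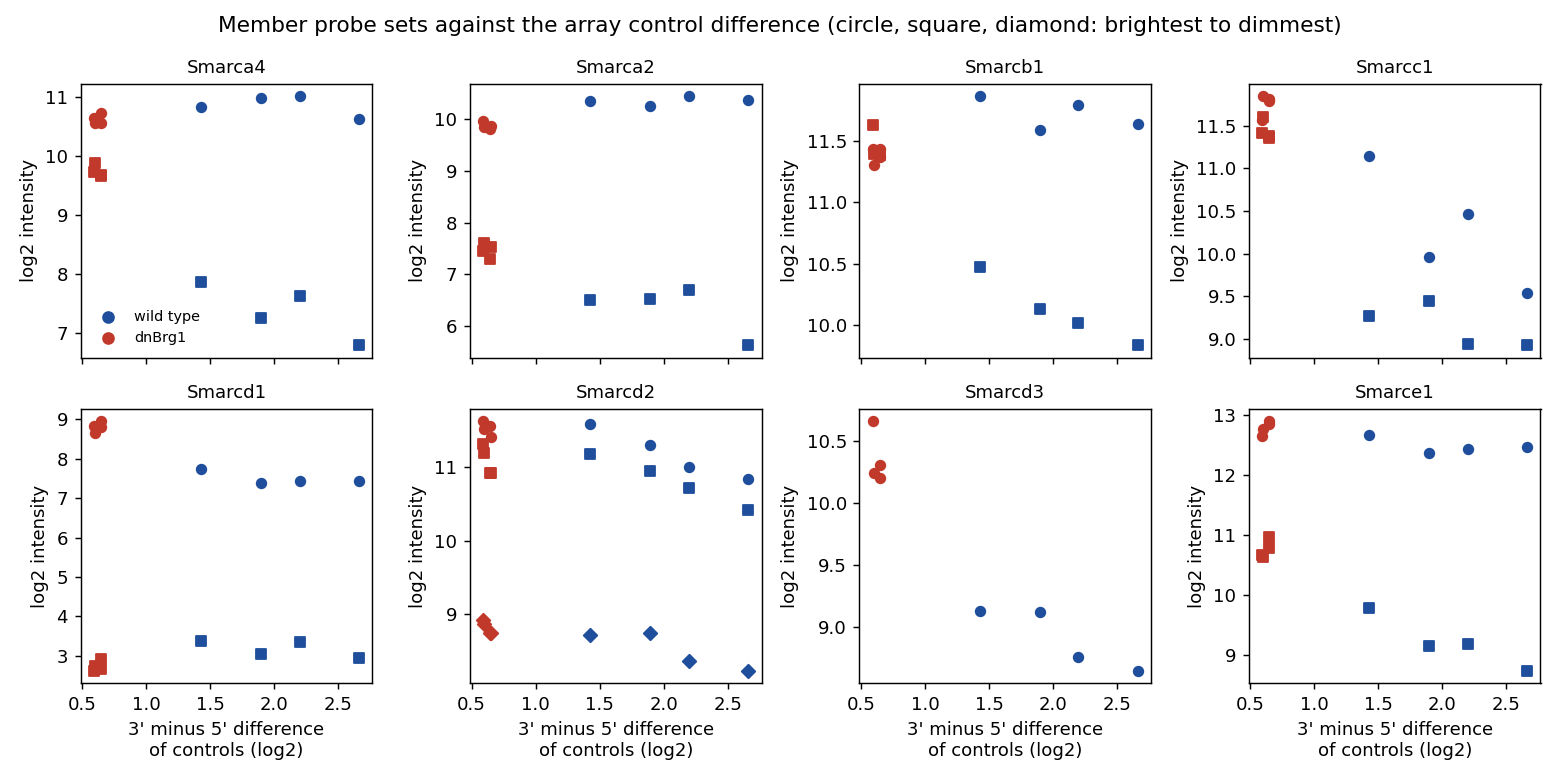
Log2 intensity of each gene's probe sets (vertical axes) against the mean difference between the 3′ and 5′ controls for Gapdh and Actb (horizontal axes, log2) in 8 samples, wild type in blue and dnBrg1 in red. The dnBrg1 samples sit together at 0.59 to 0.65, while wild type samples run from 1.43 to 2.66, and several probe sets such as those of Smarcd2 are lower where that difference is larger.

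The other subunits of SWI/SNF complexes were examined as a list of 20 genes, of which 14 had a probe set of their own and Smarcc2, the paralog of Smarcc1, was not measured. By the brightest probe set of each of the 14, 5 were higher (Phf10, Bcl7b, Actl6a, Ss18 and Brd7), 9 were not called and 0 were lower by limma, against 17.5% and 23.3% of all genes. At an unadjusted p under 0.05 limma gave 2 lower genes, and the methods' t-test gave 0 before and after adjustment. Phf10, a subunit of the polybromo-containing form of the complex, had the largest called change among the brightest probe sets, at 1.57 ± 0.14 (adjusted p = 4e-05). Bcl7b, a small accessory subunit, followed at 0.90 ± 0.14 (adjusted p = 0.00093). The median log2 fold change was 0.27 over the 14 genes, 0.33 over the 8 ATPase and core genes and -0.11 over all genes. Only 1 of the 14 was called higher with the control covariate. Over all 21 probe sets of the 14 genes, 7 were called higher and 4 lower, against 19.8% and 21.0% of all probe sets. The count of 0 lower thus holds for the brightest probe sets alone. The lower calls were further probe sets of Dpf1 (-1.21), Pbrm1 (-0.77), Actl6a (-0.61) and Dpf3 (-0.53), and another Pbrm1 probe set rose by more than Phf10, at 1.96 ± 0.24 (adjusted p = 0.00023).

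The genes whose values ran most like those of Smarca4 over the 8 samples differed between its probe sets. For 1426804_at they were Timm10b (Pearson r = 0.968), Egln2 (r = 0.968) and Stt3b (r = 0.949), among 10439 probe sets at or above the median level that name 1 gene. For 1426805_at they were Ubqln4 (r = 0.998), Me2 (r = 0.997) and Smc1a (r = 0.997), and 1102 probe sets had an r above 0.95, against 2 for 1426804_at. The 8 points share 2 groups, so an r over them largely carries the difference between the groups, and it is given as a description.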

How the data were processed

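RNA from whole lenses was amplified from 50 ng of total RNA per sample, biotin-labeled and hybridized to 8 arrays. The authors processed the scans with robust multichip average (RMA, version not given in the sources used here), and deposited linear intensities of 3.64 to 28468.2. RMA gives all arrays the same distribution of probe values, so it would hide a shift common to most transcripts. Array medians were 197 to 209, and precision is limited by having 8 arrays. In the labels' free text 6 samples are described as RNA bound to polysomes and 2 (dnBrg1 replicates 3 and 4) as total RNA, although every sample has total RNA as its molecule.

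Groups follow the genotype in the labels. The labels call the samples biological replicates. Wild type embryos were littermates of the transgenic ones, and the sources used here do not say which samples share a litter. Of 22690 probe sets, 64 array controls were set aside. The log2 of the deposited intensities was compared by lmFit and eBayes of limma 3.58.1 (R 4.3.3) between dnBrg1 and wild type samples, with no covariate, filter or pairing. The threshold for a call was 0.05 after Benjamini-Hochberg adjustment. This takes the place of the study's Student's t-test with significance analysis of microarrays. The t-test was run as an alternative and the latter was not run. The fit was also tested on simulated data with known changes. Single values were compared by two-sided exact permutation tests over 70 assignments (scipy 1.17.1).

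The named genes are the 8 ATPase and core genes with every probe set naming them alone, Smarcc2 and the 2 called genes with the largest change in each direction of the other SWI/SNF subunits, the 3 genes most like each Smarca4 probe set, and cell type markers. Actl6a, Ss18 and Brd7 fall outside this rule and were added, with their values known, to complete a count of 5. The further probe sets of Dpf1, Pbrm1, Actl6a, Dpf3, Mip and Csf1r were also added with their values known. The genes and lists were chosen with earlier results of these data known. Marker lists covered lens fiber, lens epithelium, retina and neurons, macrophage, endothelium, skeletal muscle, pigment cell, mesenchyme and erythroid cells. Protein sequences of the genes were not analysed here.

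Alternatives were the scaling between arrays (median centring, quantile), the addition of 16 before the log and removal of probe sets below the median mean. Others were limma's trend and robust options and array weights, single samples left out, and a block for the replicate number. A covariate for the described fraction or for the controls was also tried. So were dnBrg1 samples of 1 described fraction alone, the t-test, and thresholds of 0.01 or 1.5-fold. The paralog differences and the fit without wild type replicates 2 and 4 were added after seeing the data.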

Additional observations from a re-analysis of the deposited data

Results flagged for a closer look

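In 2 of the 32 groups of 4 values, 1 sample stood apart from the other 3 by more than Dixon's 95% critical value, which chance alone gives in about 1 of 20 groups. For Smarcb1 1416045_a_at, dnBrg1 replicate 3 read 11.63 while the other dnBrg1 samples read 11.39, 11.39 and 11.40, so that its gap made up 0.989 of the group's range. For Smarcd1 1448913_at, wild type replicate 3 read 7.74 while the others read 7.39, 7.44 and 7.44, a share of 0.833. Both calls remained without the sample concerned, at log2 fold changes of 1.29 and 1.39.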

How the results depend on the processing

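With the control covariate 1 of the 16 probe sets was called higher and 0 were lower (in place of 9 and 3), 0 of the 8 genes were higher and 0 lower by their brightest probe set (4 and 2), and 1 other subunit was higher (5). Smarcc1 1423416_at (-0.12) and Smarcd2 1448400_a_at (-0.56), 1426192_at (-0.66) and 1448401_at (-0.34) then changed sign; the covariate does not overlap between the groups, and the cause was not tested. The 9 higher calls stayed between 8 and 10 with any 1 sample left out, while the lower calls ran from 1 to 4, and from 1 to 3 by the brightest probe set (3 to 5 higher). Lower calls numbered 1 of the 16 probe sets and 1 of the 8 genes with the replicate block, with dnBrg1 replicates 1 and 2 or 3 and 4 alone, with the described RNA fraction as a covariate and at an adjusted p under 0.01, and 0 with a 1.5-fold threshold. The mean of a gene's probe sets gave 0 lower genes, and the fit without wild type replicates 2 and 4 gave 1. Replicate numbers of the labels were not used to pair the samples in the main fit. Same-numbered deviations correlated at -0.187, -0.0135, -0.0538 and 0.157, which cannot show whether those samples share a litter. The block took the calls over all probe sets from 9229 to 7963. Other subunits called higher numbered 3 with dnBrg1 replicates 1 and 2 or 3 and 4 alone and with a 1.5-fold threshold, and 5 to 6 with 1 sample left out. Other subunits called lower numbered 1 with centred or quantile-scaled arrays, only bright probe sets, trend and robust options, array weights, the block and the mean of probe sets, and 0 to 1 with 1 sample left out. No pair of probe sets of a gene (0 of 8) passed with 1 sample left out or with dnBrg1 replicates 1 and 2 or 3 and 4 alone, where the smallest exact p is 0.0571 or 0.133 and none could pass. The first Smarcd2 pair then moved by -0.05 with dnBrg1 replicates 3 and 4 alone. With 1 sample left out the control differences were -1.13 to -0.67 for Gapdh and -2.14 to -1.77 for Actb (exact permutation p = 0.0571). Centred and quantile-scaled arrays put the median log2 fold change of all probe sets at -0.12 and -0.03, against -0.08. Signal limits the second Smarcd1 probe set, which lies within the range of the bacterial controls.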

Other observations

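Of 3 lens epithelium markers 2 were higher in dnBrg1 lenses, with summed intensities of 6780 to 7939 in wild type and 9121 to 10786 in dnBrg1 samples. Of 5 endothelial markers 1 was higher and 2 were lower (3455 to 3768 and 2742 to 3463). Of 3 measured markers of retina and neurons 1 was higher and 1 was lower (3347 to 5526 and 3821 to 5868), and of 3 pigment cell markers 1 was lower (1924 to 4443 and 1575 to 3145). None of 4 mesenchyme markers was called (1385 to 3921 and 592 to 7972), nor either of 2 erythroid markers (464 to 825 and 302 to 933). Lens fiber markers had 1 of 5 called, higher (Bfsp1). These counts use the brightest probe set of each marker, and a further probe set of Mip was also higher (1.34, adjusted p = 0.0059). The array table holds no detection calls, so no marker can be said to be at 0.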
